A study of Bos taurus with 86 samples.

Results

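PTGS2, the gene for prostaglandin-endoperoxide synthase 2 (cyclooxygenase-2), was followed here in single cattle embryos. It is 1 gene of the 4452 gene symbols on a two-colour cDNA array, and was found as the rows whose single symbol in the platform annotation is PTGS2: 2 neighbouring rows of 1 clone, out of 16416 rows. Both rows had a value on every one of the 86 arrays, so all 172 PTGS2 cells of the table could be used. The clone was not mapped to a genome here and no coordinates are given.

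Cyclooxygenase enzymes turn arachidonic acid, released from membrane phospholipids, into prostaglandin H2, from which separate terminal synthases make prostaglandin E2, F2-alpha, D2, prostacyclin and thromboxane. PTGS2 is the inducible cyclooxygenase, switched on by growth factors, cytokines and mitogens through an early, short-lived mRNA, whereas PTGS1 is the form made steadily in many tissues. In cattle and sheep the trophectoderm of the conceptus expresses PTGS2 and releases prostaglandins, and the cumulus cells around the maturing oocyte express it too.

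The study compared single embryos of 3 kinds, IVF (15 embryos, 30 arrays), IVD (14 embryos, 28 arrays) and AI (14 embryos, 28 arrays), in order to see how maturation, fertilization and culture outside the animal bear on gene expression. IVF was read as in vitro fertilization and AI as artificial insemination. The labels do not spell out IVD, so it serves only as a group name. Neither the developmental stage nor the make-up of the reference RNA is given in the sources read here. Each embryo was hybridised against 1 common reference RNA on 2 arrays with the dyes exchanged, after 3 rounds of linear amplification for embryo RNA and 2 rounds for reference RNA. All 3 groups shared that handling, as far as the labels tell. The numbers of 4 IVD embryos begin alike (12_1, 12_2, 12_3 and 12_4), and no source says whether these embryos are related, so p-values for IVD may rest on fewer than 14 independent embryos.

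Values are log2 ratios of embryo to reference, with each array shifted to a median of 0 over the 5558 rows that all arrays measured, and with the 2 arrays of an embryo averaged, so that 1 unit is a doubling. The labels do not say which dye is the numerator of the deposited ratios. Cy5 over Cy3 was taken as likely, because 13 of the 15 measured trophectoderm markers then lie above 0 in the embryos, with a median log2 ratio of 2.04. That choice assumes that the embryos held trophectoderm and the reference RNA less of it, and the sources read here give neither. Were the numerator Cy3, each sign given here would be the other way round. A ratio to the reference is no level of mRNA, and the order of 2 genes by ratio does not give the order of their levels.

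PTGS2 stood far above the reference in all 43 embryos. The log2 ratio was 5.19 ± 0.155 in IVF embryos (SD, n = 15), 6.10 ± 0.514 in IVD embryos (SD, n = 14) and 5.07 ± 0.377 in AI embryos (SD, n = 14), which is 36.5-fold, 68.6-fold and 33.5-fold over the reference. Embryo RNA had 3 rounds of amplification and reference RNA 2, so in these folds embryo and amplification cannot be told apart. In whole embryos, more cells that express PTGS2 and more PTGS2 mRNA per cell cannot be told apart. The 15 IVF embryos ran from 4.89 through a median of 5.22 to 5.43. The 14 IVD embryos ran from 4.52 through a median of 6.24 to 6.54, and the 14 AI embryos ran from 4.44 through a median of 5.08 to 6.04. IVD was thus the highest group and AI the lowest by mean, while IVF and AI lay within each other's spread.

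A single embryo stood low among the IVD embryos and a single one high among the AI embryos. IVD embryo 6 had 4.52, below every IVF embryo, whereas the other 13 IVD embryos lay between 5.83 and 6.54, all above the highest IVF embryo. AI embryo 14 had 6.04, whereas the other 13 AI embryos lay between 4.44 and 5.28. Without these 2 embryos the IVD mean was 6.22 ± 0.253 and the AI mean 4.99 ± 0.262 (SD, n = 13 each), and the lowest IVD embryo, at 5.83, lay above the highest AI embryo, at 5.28. As measured in all embryos, 10 of 14 IVD embryos exceeded the highest AI embryo and 13 of 14 exceeded the AI median. The embryos left aside were picked by their PTGS2 value, so this second pair of means is a description only.

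**Figure D1:**
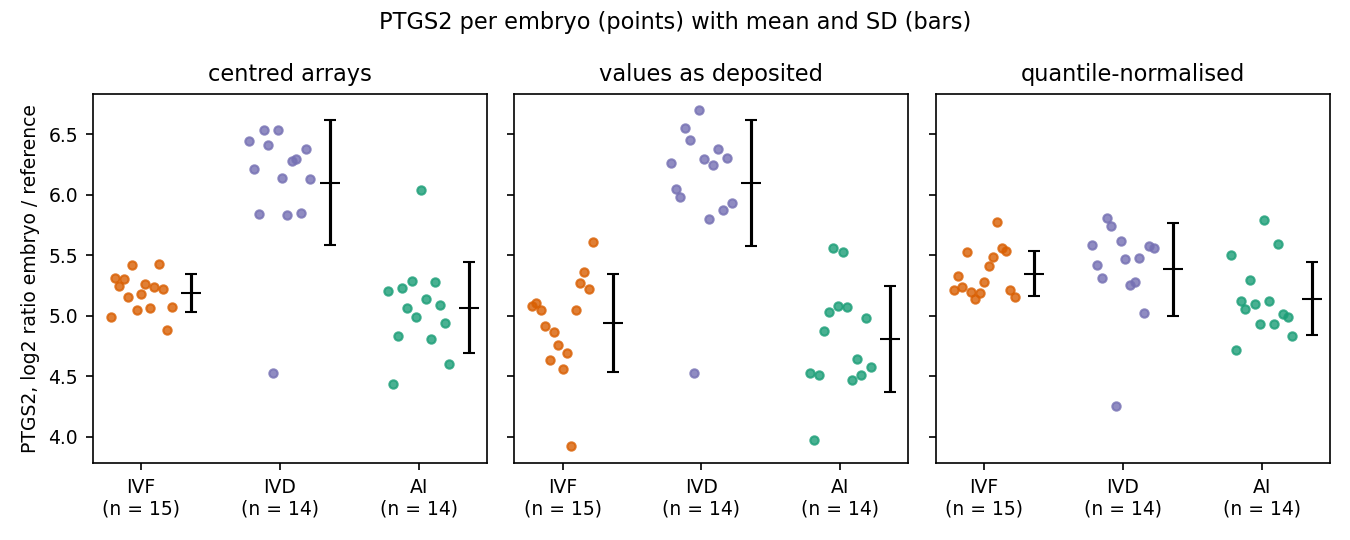
PTGS2 log2 ratio of embryo to reference in each embryo (points) with the group mean and SD (bars), for IVF (n = 15), IVD (n = 14) and AI (n = 14), after centring of the arrays, as deposited, and after quantile normalization. With centring, 13 of 14 IVD embryos lie above all IVF embryos, while after quantile normalization the 3 groups overlap throughout, with means of 5.35, 5.38 and 5.14.

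IVF and AI embryos differed by less than their spread. The difference, IVF minus AI, was 0.12 ± 0.14 (SE) on the log2 scale, a 1.09-fold ratio with a 95% interval of 0.896 to 1.32 (limma adjusted p = 0.51 over 6278 features). For the same comparison 37.7% of all features passed the threshold of 0.05, 19.9% higher in IVF and 17.7% lower. Of 15 IVF embryos, 10 lay above the AI median, and 4 of 14 AI embryos lay below the lowest IVF embryo. A difference as large as the one between IVD and AI embryos lies outside that interval.

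PTGS2 was higher in IVD embryos than in AI embryos by 1.03 ± 0.14 (SE) on the log2 scale, 2.05-fold with a 95% interval of 1.68 to 2.49 (limma adjusted p = 1.09e-07). The same comparison called 46.5% of all features, 25.5% higher in IVD and 21.0% lower, so a call of this kind is common among the features. By size it was the 114th highest of 3433 named genes. A permutation of the group labels for PTGS2 alone (two-sided, 100000 resamples) gave p = 4e-05, or 6e-05 adjusted over the 3 comparisons. Leaving out any 1 embryo kept the difference between 0.985 and 1.15, the highest without IVD embryo 6.

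IVF embryos were lower than IVD embryos by a similar amount. IVF minus IVD was -0.91 ± 0.14 (SE), a ratio of 0.532 with a 95% interval of 0.438 to 0.646 (limma adjusted p = 6.68e-07). Of all features, 47.6% passed in that comparison, 22.3% higher in IVF and 25.2% lower. The permutation p was 1e-05, the smallest that 100000 resamples can give, and 3e-05 after adjustment. The 3 comparisons share groups and are not independent of one another.

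Of the ways tried to put the arrays on a common scale, quantile normalization ended the IVD calls. After quantile normalization, which gives every array the same distribution of ratios, PTGS2 was 5.35 ± 0.189 in IVF (SD, n = 15). It was 5.38 ± 0.386 in IVD and 5.14 ± 0.303 in AI (SD, n = 14 each), and the IVD embryos ran from 4.25 to 5.80. IVD minus AI was then 0.24 (limma adjusted p = 0.0858) and IVF minus IVD was -0.04 (adjusted p = 0.823). Dividing each array by its own median absolute deviation left IVD minus AI at 0.80 (adjusted p = 1.14e-04) and IVF minus IVD at -0.71 (adjusted p = 3.26e-04). With the ratios as deposited, without centring, the differences were 1.29 (adjusted p = 1.37e-07) and -1.16 (adjusted p = 5.00e-07). IVF minus AI stayed short of the threshold with each of these scalings, at 0.21 after quantile normalization, 0.09 after scaling and 0.13 as deposited.

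**Figure D2:**
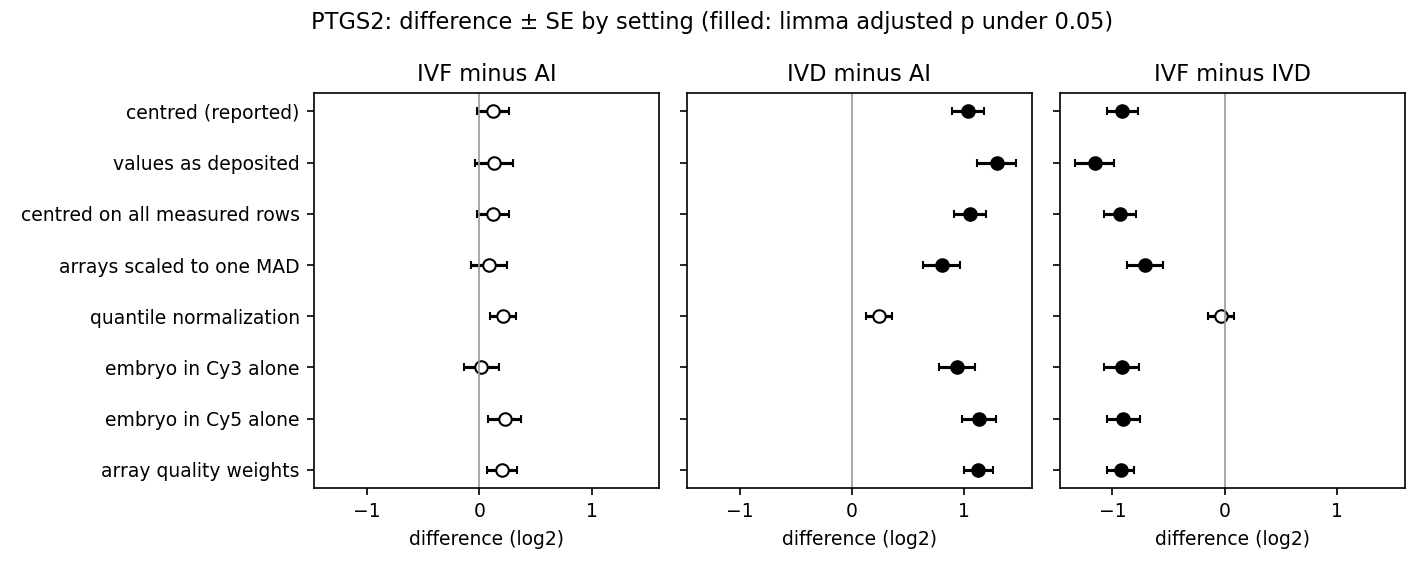
Difference in PTGS2 log2 ratio (points, bars are the SE) for IVF minus AI, IVD minus AI and IVF minus IVD under 8 ways of treating the arrays, with filled points where the limma adjusted p is under 0.05. IVD minus AI lies between 0.80 and 1.29 except after quantile normalization, where it is 0.24 and unfilled, and IVF minus AI is unfilled under each setting.

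The arrays of IVD embryos differed from the others in more than PTGS2. The 99th percentile of the ratios on the rows measured in every embryo was 3.31 ± 0.0956 in IVF embryos (SD, n = 15), 3.81 ± 0.176 in IVD embryos and 3.27 ± 0.164 in AI embryos (SD, n = 14 each). Rows without a value numbered 3076.5 to 5099.5 per IVF embryo (mean of its 2 arrays), 1001.5 to 1871.5 per IVD embryo and 3613 to 5713 per AI embryo. After turning the sign of one dye, the 2 arrays of an embryo correlated at 0.717 to 0.911 in IVF, 0.589 to 0.767 in IVD and 0.816 to 0.912 in AI. Grouped by the difference between their 2 dyes over the features, the embryos formed 3 clusters. The first held all 14 AI, all 14 IVD and 6 IVF embryos, and the others held 8 and 1 IVF embryos. With the clusters as a block, AI is compared with those 6 IVF embryos alone, and IVF minus AI was 0.16 (limma adjusted p = 0.471). No slide, day or batch is recorded in the labels. Embryo type and array handling thus cannot be told apart for IVD embryos or for the IVF embryos outside the first cluster. The part of these differences in the PTGS2 result was not tested beyond that block and the scalings given above.

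PTGS2 sat at the upper end of the ratios in all 3 groups. By mean ratio it was the highest of the 3433 named genes in IVF and in IVD, and the second in AI, where ENPEP (glutamyl aminopeptidase) had 5.19. That rank is for Cy5 as the numerator, and with Cy3 as the numerator the order would be turned, with PTGS2 at the lowest end. Like the ratios, the rank also carries the unequal amplification of embryo and reference RNA. In percentile terms PTGS2 lay at 99.93 in IVF, 99.91 in IVD and 99.91 in AI among the rows measured on all arrays, and no pair of groups passed the threshold for that rank (permutation test over embryos, adjusted p between 0.420 and 0.894). A rank so near the top of the list is bounded from above. Measured from the 99th percentile of its own embryo, PTGS2 lay 1.88 ± 0.154 log2 units above it in IVF (SD, n = 15), 2.29 ± 0.403 in IVD and 1.80 ± 0.282 in AI (SD, n = 14 each). By that measure, chosen after the data had been seen, IVD minus AI was 0.49 and IVF minus IVD was -0.41 (permutation test, adjusted p = 0.00158 for each), and IVF minus AI was 0.08 (adjusted p = 0.334). In log2 units this distance also grows where the ratios of an embryo run wider. The measure therefore does not take out the wider upper end of the ratios in IVD embryos, and it cannot separate PTGS2 from it.

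Other features with very high ratios are described beside PTGS2, without a test. Of the 20 features besides PTGS2 with the highest mean ratio over the 3 groups, 18 were higher in IVD than in AI and none was lower (25.5% and 21.0% of all features), with a median difference of 0.94 and a range of 0.175 to 1.48, around the 1.03 of PTGS2. All 20 were lower in IVF than in IVD (25.2% of all features), with a median of -0.97 against -0.91 for PTGS2. Between IVF and AI, 3 were higher and 2 lower (19.9% and 17.7% of all features), with a median of -0.11. After quantile normalization the median over the 20 was 0.38 for IVD minus AI and -0.17 for IVF minus IVD. They include ENPEP, CDH1 (E-cadherin, the adhesion protein of epithelial junctions), TIMM23 (the inner-membrane channel for mitochondrial protein import), AQP3 (a water and glycerol channel) and LOC504861, and 15 rows that carry no single gene symbol. The IVD values entered the choice of these 20, which favours features that are high in IVD, and 12 of the 15 unnamed rows form 6 pairs of neighbouring rows that were not averaged and may be spots of 1 clone.

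**Figure D3:**
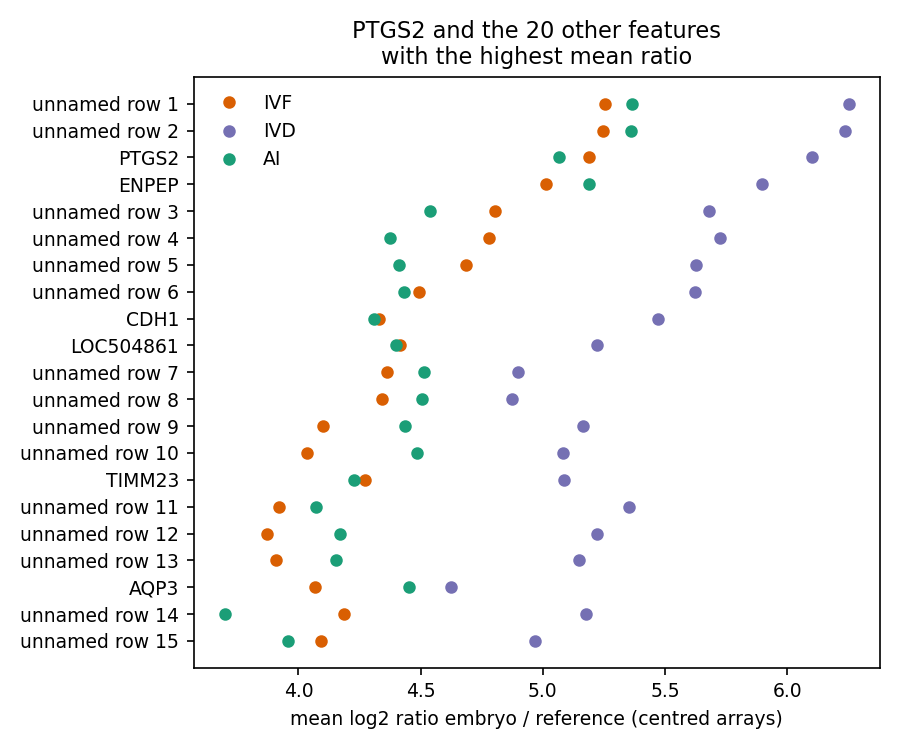
Mean log2 ratio of embryo to reference in IVF, IVD and AI embryos for PTGS2 and the 20 other features with the highest mean ratio, ordered by that mean. In all 21 the IVD point lies to the right of the IVF and AI points, and PTGS2 is the third from the top.

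After centring, both dyes gave the same order of groups for IVD against the others. With the embryo in Cy3, PTGS2 averaged 5.17 ± 0.241 in IVF (SD, n = 15), 6.08 ± 0.539 in IVD and 5.15 ± 0.460 in AI (SD, n = 14 each). With the embryo in Cy5 the means were 5.21 ± 0.251, 6.12 ± 0.531 and 4.98 ± 0.344 in the same groups and numbers. IVD minus AI was 0.94 in Cy3 alone (limma adjusted p = 7.69e-06) and 1.13 in Cy5 alone (adjusted p = 6.12e-08). IVF minus IVD was -0.92 in Cy3 alone (adjusted p = 5.24e-06) and -0.91 in Cy5 alone (adjusted p = 2.30e-06). IVF minus AI was 0.02 in Cy3 and 0.23 in Cy5, neither past the threshold. The dye difference of PTGS2 (the value with the embryo in Cy5 minus that in Cy3, divided by 2) did not pass the threshold between any pair of groups, at 0.10 for IVF minus AI (adjusted p = 0.216), 0.10 for IVD minus AI (adjusted p = 0.268) and 0.01 for IVF minus IVD (adjusted p = 0.941), where 25.3%, 23.3% and 45.7% of all features did.

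Before centring the dyes disagreed in size. The deposited values with the embryo in Cy3 averaged -5.38 in IVF, -5.73 in IVD and -5.31 in AI, and those with the embryo in Cy5 averaged 4.49, 6.46 and 4.31 in the same groups. The gap between IVD and the other groups was smaller than the SD between embryos in the first set (SD 0.566 to 0.808 by group) and larger than the SD in the second (0.398 to 0.639). Centring brought the 2 sets together.

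**Figure D4:**
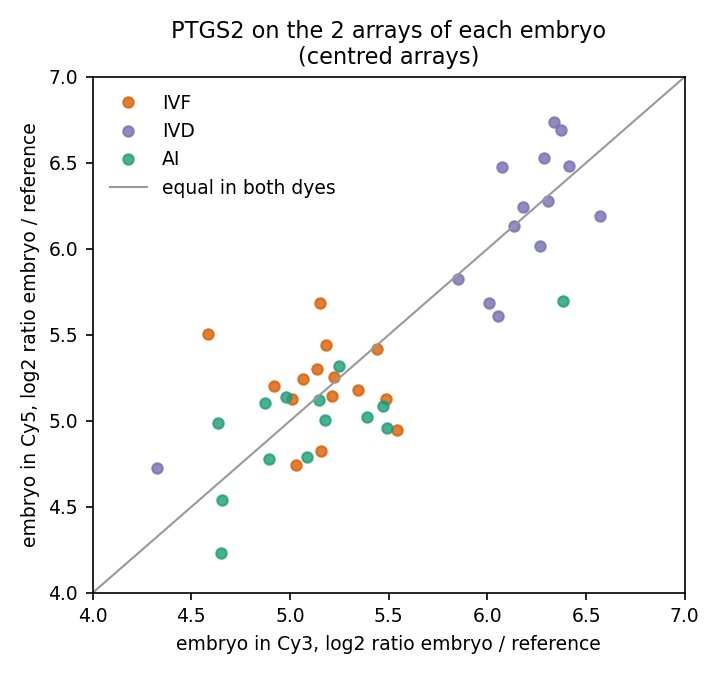
PTGS2 log2 ratio with the embryo in Cy3 (horizontal axis) and in Cy5 (vertical axis) for each of the 43 embryos, with the line of equal values. IVD embryos other than embryo 6 lie above 5.8 in Cy3 and above 5.6 in Cy5, and AI embryo 14 lies near them at 6.38 and 5.70.

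The 2 spotted rows of the clone gave close to the same values. Over the 86 arrays the difference between them had an SD of 0.208 and was at most 0.703 in size, and the embryos' deviations from their group means correlated at 0.933 between rows. Fitted on its own, the first row gave 1.01 for IVD minus AI (limma adjusted p = 1.61e-07) and the second gave 1.05 (adjusted p = 1.65e-07). For IVF minus IVD both rows gave -0.91, and for IVF minus AI they gave 0.10 and 0.14. The rows are spots of 1 clone and do not speak for other parts of the transcript.

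The spread of PTGS2 between embryos did not differ between groups past the adjusted threshold. With centred arrays the mean absolute deviation from the group median was 0.122 in IVF, 0.311 in IVD and 0.257 in AI. In a two-sided permutation test over embryos, IVF minus IVD was -0.189 (p = 0.0375, adjusted p = 0.103) and IVF minus AI was -0.135 (p = 0.0688, adjusted p = 0.103). Without IVD embryo 6 and AI embryo 14 the deviations were 0.122, 0.200 and 0.201, and the adjusted p was 0.215 for both comparisons with IVF. IVD minus AI was 0.0539 (adjusted p = 0.742). The order of the groups depended on the scaling. Without centring, IVF minus IVD was -0.0337 and IVF minus AI -0.0613 (adjusted p = 0.872 for both), and the IVF embryos ran from 3.92 to 5.61 against 3.97 to 5.56 in AI. With each array divided by its own median absolute deviation the SD was 0.457 in IVF, 0.535 in IVD and 0.295 in AI (n = 15, 14 and 14).

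Few other genes of prostaglandin synthesis could be read on this array. Of 21 genes for release, synthesis, breakdown and transport other than PTGS2, 4 were on the array and 3 had enough values, PTGDS, AKR1B1 and ANXA1, while PTGES did not. PTGDS, the lipocalin-type prostaglandin D synthase, had a log2 ratio of -2.20 ± 0.502 in IVF (SD, n = 15), -2.73 ± 0.175 in IVD (SD, n = 14) and -2.22 ± 0.391 in AI (SD, n = 12). PTGDS was lower in IVD than in AI with a difference of -0.50 ± 0.15 (SE, limma adjusted p = 0.00577), the opposite sign to PTGS2. IVF minus IVD for PTGDS was 0.52 ± 0.14 (adjusted p = 0.0024), and IVF minus AI was 0.02 (adjusted p = 0.94). As deposited, without centring, neither PTGDS difference passed (adjusted p = 0.296 and 0.205).

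AKR1B1, an aldose reductase that also acts as the prostaglandin F synthase of bovine endometrium, had means of 0.65 in IVF, -0.07 in IVD and 0.42 in AI. It was higher in IVF than in IVD by 0.72 ± 0.22 (SE, limma adjusted p = 0.00689, or 0.137 without centring), and IVD minus AI was -0.49 (adjusted p = 0.073). ANXA1, annexin A1, which restrains phospholipase A2, was lower in IVF than in IVD with a difference of -0.43 ± 0.18 (SE, adjusted p = 0.0447). That call ended when any of 17 embryos was left out in turn. Together the 3 genes counted 0 higher and 0 lower for IVF minus AI, 0 higher and 1 lower for IVD minus AI, and 2 higher and 1 lower for IVF minus IVD, where 37.7%, 46.5% and 47.6% of all features were called. Their median differences were 0.06, -0.49 and 0.52, beside medians over all features of 0.04, 0.06 and -0.01.

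No gene for a membrane prostaglandin receptor was measured. Of 15 receptor-related genes, 2 were on the array and only RXRB had enough values, while PTGFRN did not. RXRB, a retinoid X receptor and the partner of the PPAR receptors that bind some prostaglandins, was lower in IVF than in AI with a difference of -0.46 ± 0.13 (SE, limma adjusted p = 0.0057) and in IVD than in AI with a difference of -0.34 ± 0.14 (SE, adjusted p = 0.0348). Without centring these were -0.45 (adjusted p = 0.0731) and -0.09 (adjusted p = 0.727), and the IVD call also ended when any of 9 embryos was left out.

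Of 14 genes for other eicosanoids and related lipids, 6 were on the array and 5 were measured, ALOX5 being the one that was not. The counts were 2 higher and 1 lower for IVF minus AI, 1 higher and 0 lower for IVD minus AI, and 1 higher and 2 lower for IVF minus IVD, where 37.7%, 46.5% and 47.6% of all features were called. LTA4H, leukotriene A4 hydrolase, which makes leukotriene B4, was higher in IVD than in AI by 0.53 ± 0.22 (SE, limma adjusted p = 0.0409), a call that ended when any of 15 embryos was left out. It was lower in IVF than in IVD with a difference of -0.58 ± 0.21 (SE, adjusted p = 0.0233). MGST2, a microsomal glutathione transferase that can make leukotriene C4, was lower in IVF than in AI with a difference of -0.41 ± 0.10 (SE, adjusted p = 0.00138) and than in IVD with a difference of -0.40 ± 0.10 (SE, adjusted p = 8.98e-04). GPX4, which reduces lipid hydroperoxides, was higher in IVF than in AI by 0.34 ± 0.12 (SE, adjusted p = 0.0199, or 0.169 without centring) and than in IVD by 0.50 ± 0.12 (SE, adjusted p = 4.64e-04, or 0.27 without centring). MGLL, which frees arachidonic acid from 2-arachidonoylglycerol, was higher in IVF than in AI by 0.30 ± 0.12 (SE, adjusted p = 0.0358, or 0.108 without centring), and that call ended when any of 9 embryos was left out. FAAH, which hydrolyses anandamide, passed in no comparison.

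**Figure D5:**
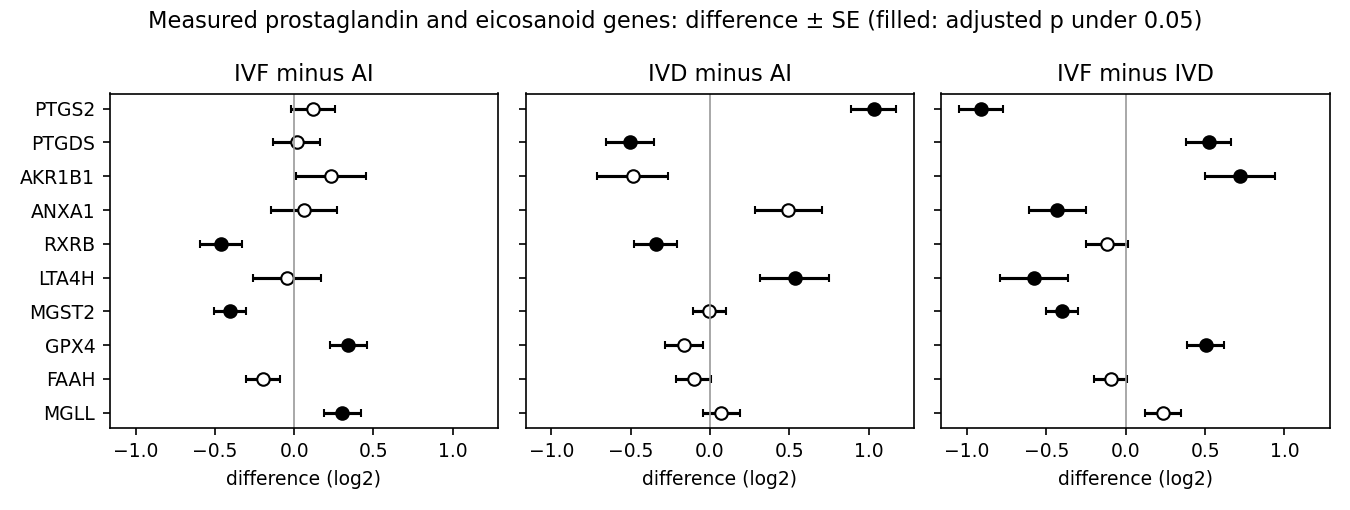
Difference in log2 ratio (points, bars are the SE) for PTGS2 and the 9 other measured genes of prostaglandin and eicosanoid metabolism in IVF minus AI, IVD minus AI and IVF minus IVD, with filled points where the limma adjusted p is under 0.05. With centred arrays PTGS2 has the largest difference of the 10 in IVD minus AI and in IVF minus IVD. After quantile normalization it has 0.24 and -0.04, against -0.79 and 0.70 for PTGDS.

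Of 37 genes for factors known from mammalian cells to act on PTGS2 transcription or on the stability of its AU-rich mRNA, 20 were on the array and 16 were measured. In IVD minus AI, 4 were higher and 4 lower, with a median difference of -0.05, and over all features 46.5% were called. CEBPD, a C/EBP factor that binds the PTGS2 promoter in several cell types, was lower with a difference of -1.01 ± 0.14 (SE, limma adjusted p = 1.74e-07). FOS, an AP-1 subunit, was lower with a difference of -1.07 ± 0.33 (SE, adjusted p = 0.00663, or 0.0547 without centring). ETS1, an ETS factor, was higher by 1.24 ± 0.34 (SE, adjusted p = 0.00352), and DUSP1, the phosphatase that switches off p38 and JNK, by 1.24 ± 0.28 (SE, adjusted p = 4.36e-04). ETS1 had a value in only 12 IVF, 11 IVD and 9 AI embryos. DUSP1 had one in 14 IVF, 13 IVD and 12 AI embryos, from 2 of its 6 rows.

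Between IVF and AI embryos, where PTGS2 did not pass, 8 of these 16 genes were higher and 4 lower, with a median of 0.24, where 19.9% of all features were higher and 17.7% lower. Without centring some of these calls ended, among them FOS (limma adjusted p = 0.0929) and RELA, an NF-kappa B subunit (adjusted p = 0.241). Calls over all 6278 features also fell, to 644 higher and 681 lower. The FOS call ended as well when any of 15 embryos was left out. EGR1, an immediate early zinc finger factor, was lower in IVF with a difference of -1.77 ± 0.36 (SE, limma adjusted p = 1.59e-04). ETS1 was higher by 1.42 ± 0.33 (SE, adjusted p = 0.0012), DUSP1 by 1.24 ± 0.28 (SE, adjusted p = 5.11e-04) and ATF3, a stress-induced factor, by 1.23 ± 0.23 (SE, adjusted p = 5.74e-05). In IVF minus IVD, 5 were higher and 3 lower, with a median of 0.19, and over all features 47.6% were called. CEBPD was higher in IVF by 1.24 ± 0.14 (SE, adjusted p = 1.35e-09) and RELA, the p65 subunit of NF-kappa B, by 0.99 ± 0.09 (SE, adjusted p = 4.67e-12). MAPK3, the kinase ERK1, was higher by 0.85 ± 0.17 (SE, adjusted p = 8.28e-05), and EGR1 was lower with a difference of -1.01 ± 0.36 (SE, adjusted p = 0.0172).

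Markers of the cell types that could hold PTGS2 mRNA were set beside it. Of 24 trophectoderm markers, 16 were on the array and 15 measured. The direction of the ratios was itself taken from these markers, so their sign is no result. The median over these 15 ran from 1.40 to 2.11 in IVF embryos, from 0.749 to 2.498 in IVD embryos and from 1.503 to 2.551 in AI embryos, so the groups overlapped. In IVD minus AI, 6 were higher and 4 lower, with a median of -0.11, where 25.5% of all features were higher and 21.0% lower. CDH1 rose by 1.16 ± 0.12 (SE, limma adjusted p = 7.67e-11), EPCAM, an epithelial adhesion protein, by 1.05 ± 0.13 (SE, adjusted p = 7.46e-09) and TFAP2C, a trophectoderm transcription factor, by 1.04 ± 0.17 (SE, adjusted p = 2.83e-06), while KRT8, an epithelial keratin, fell by 0.81 ± 0.15 (SE, adjusted p = 1.46e-05). After quantile normalization the differences were 0.49 for CDH1, 0.78 for EPCAM, 0.69 for TFAP2C and -0.92 for KRT8. All of these still passed (limma adjusted p = 0.00146 or below).

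In IVF minus IVD, 3 of the 15 trophectoderm markers were higher and 7 lower, with a median of -0.14, where 22.3% of all features were higher and 25.2% lower. CDH1 was lower with a difference of -1.14 ± 0.11 (SE, limma adjusted p = 5.32e-11), TFAP2C with a difference of -1.11 ± 0.17 (SE, adjusted p = 4.25e-07) and EPCAM with a difference of -0.94 ± 0.12 (SE, adjusted p = 3.61e-08), while KRT19 was higher by 0.83 ± 0.18 (SE, adjusted p = 1.89e-04). After quantile normalization these differences were -0.41, -0.70, -0.61 and 1.02 in that order, and all still passed (limma adjusted p = 0.00554 or below). In IVF minus AI, 1 was higher and 4 lower, with a median of -0.11, and over all features 37.7% were called. DAB2, an endocytic adaptor, was lower with a difference of -1.39 ± 0.25 (SE, adjusted p = 2.33e-05), TFAP2A with a difference of -0.64 ± 0.19 (SE, adjusted p = 0.00838) and KRT18 with a difference of -0.36 ± 0.12 (SE, adjusted p = 0.0134, or 0.16 without centring). SLC2A1, a glucose transporter, was lower with a difference of -0.42 ± 0.17 (SE, adjusted p = 0.0408), a call that ended when any of 15 embryos was left out.

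Of 15 genes of cumulus and granulosa cells, 3 were on the array and measured: TNFAIP6, CYP19A1 and CYP11A1. Their median per embryo ran from -0.26 to 0.21 in IVF, from -0.33 to 0.28 in IVD and from -0.53 to 0.12 in AI, close to the centre of the arrays. TNFAIP6, a hyaluronan-binding protein of the cumulus matrix, had a difference of 0.57 for IVD minus AI (limma adjusted p = 0.0652, or 0.88 with 0.0118 without centring), -0.60 for IVF minus IVD (adjusted p = 0.0718, or -0.87 with 0.0214 without centring) and -0.03 for IVF minus AI (adjusted p = 0.949), from 7 IVF, 13 IVD and 9 AI embryos. CYP11A1, the enzyme that begins steroid synthesis, was higher in IVD than in AI by 0.40 (limma adjusted p = 0.00195) and in IVF than in AI by 0.41 (adjusted p = 0.00226). CYP19A1, the aromatase, was higher in IVF than in AI by 0.28 (adjusted p = 0.00881, or 0.144 without centring) and than in IVD by 0.21 (adjusted p = 0.0346), where the sign turned to -0.03 without centring. That call against IVD also ended after quantile normalization (limma adjusted p = 0.0766) and when any of 9 embryos was left out. These 3 genes and the 2 that follow were named after their values had been seen. Of the inner cell mass list 2 genes were measured, and they moved in opposite directions. KLF4, a pluripotency factor also made by epithelia, was higher in IVD than in AI by 0.61 (adjusted p = 0.00478), and IVF minus IVD was -1.07 (adjusted p = 3.26e-06), the signs of PTGS2. SPP1, osteopontin, had -0.83 (adjusted p = 0.00157, or 0.0669 without centring) and 0.99 (adjusted p = 1.46e-04) for the same comparisons. IVF minus AI was -0.46 for KLF4 (adjusted p = 0.0363, or 0.127 without centring), a call that ended when any of 11 embryos was left out, and 0.16 for SPP1 (adjusted p = 0.571). None of the primitive endoderm, oocyte or oviduct and endometrium markers had enough values. Of the blood cell markers CD14 did, with a mean log2 ratio of -0.19 over the 9 IVF, 14 IVD and 10 AI embryos with a value. The part of these cell types in the PTGS2 difference was not tested.

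The genes most like PTGS2 were taken by the Pearson correlation of the embryos' deviations from their group means, over 43 embryos and 2344 named genes measured in all of them. The genes share the arrays, and the middle 95% of all correlations ran from -0.363 to 0.435. GAPVD1, an endocytic regulator of Rab proteins, was highest at r = 0.795, or 0.648 without IVD embryo 6 and AI embryo 14, the 2 embryos farthest from their group means. Its r was 0.129 within IVF, 0.979 within IVD and 0.835 within AI, and 0.915 in IVD without embryo 6. For GAPVD1 itself IVD minus AI was -0.14 and did not pass the threshold (limma adjusted p = 0.432). The clone accession numbers of GAPVD1 and PTGS2 lie 5 apart. The 13 named genes with a clone within 20 numbers of PTGS2, GAPVD1 among them, had r from -0.200 to 0.795, with a median of 0.115. The highest of these was GAPVD1 itself, and the next highest r was 0.281. That look at neighbouring clones was made after the correlation had been seen, and the part of clone position in it was not tested.

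PLS1 (plastin, a bundler of actin) followed at r = 0.666, then PAGE4 at 0.633, CASK (a membrane scaffold kinase) at 0.615, SEC11C (a signal peptidase subunit) at 0.610 and LGALS3 (galectin-3) at 0.608. Without the 2 farthest embryos these were 0.612, 0.534, 0.299, 0.525 and 0.496, so that of CASK rests on them. Within IVF embryos r was 0.306, 0.412, 0.027, 0.481 and 0.010 in the same order of genes. Within AI it was 0.788, 0.631, 0.446, 0.643 and 0.647, and within IVD without embryo 6 it was 0.738, 0.736, 0.347, 0.437 and 0.645. PLS1 was also higher in IVD than in AI, by 1.18 (limma adjusted p = 3.97e-06). The 6 genes were chosen over embryos that include IVD embryo 6, so a low value there is largely fixed by the choice. Its values were 1.84 for GAPVD1 against 2.88 to 3.45 in the other IVD embryos, 2.67 for PLS1 against 2.88 to 4.25, and 0.510 for CASK against 1.94 to 2.93. The lowest correlations were those of LGMN (legumain, a lysosomal protease) at -0.586, ESYT2 (a lipid transfer protein at membrane contacts) at -0.579 and COPS3 (a COP9 signalosome subunit) at -0.561, and without centring they became 0.146, -0.094 and 0.077.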

How the data were processed

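Both dyes' arrays of each embryo, 86 arrays of 43 embryos, were used. The deposited values are log2 ratios, per the value ranges and the sign change with the dye. How the authors scanned, background-corrected and normalized them, and why some spots are empty, was not given in the sources used here. No value was present for 20.1% of cells (280751 empty, 3308 holding a null, and 16 at a ceiling set to missing), and array medians ran from -2.22 to 1.06. Over rows, an embryo's 2 deposited arrays correlated at -0.912 to -0.589, so the sign was turned on arrays whose embryo was in Cy3. The lowest correlation between 2 arrays of one orientation was then 0.550.

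Rows were kept with both arrays of at least 7 embryos in each group (10757 rows). Symbols came from the platform annotation: 11196 rows had 1 symbol, 190 several, and 5030 were not listed, and 11182 rows matched RefSeq genes of ARS-UCD2.0 by identifier. Rows of 1 symbol were averaged, which left 3433 genes and 2845 unnamed rows. The fit was made in R 4.3.3 with limma 3.58.1 over all 43 embryos and 6278 features (two-sided, Benjamini-Hochberg, threshold 0.05), after the code was tested on simulated data. Permutation tests used numpy 2.4.6 in Python 3.11.15, and figures matplotlib 3.10.9. Spot intensities were not used here. Each embryo was 1 replicate, so the precision rests on the number of embryos and the spread between them.

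The genes named are PTGS2, each measured gene of the prostaglandin and eicosanoid lists with values for those past the threshold, up to 4 genes per comparison by size from the regulator and trophectoderm lists, and the 6 highest and 3 lowest correlations. PTGS2 and these lists were chosen with earlier results of these data known. Alternatives were other centrings and scalings, each dye alone, other row filters, embryos left out, weights, blocks and single rows.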

Additional observations from a re-analysis of the deposited data

How the results depend on the processing

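Leaving out 1 embryo at a time kept PTGS2 on its side of the threshold in each comparison: 0.0732 to 0.196 for IVF minus AI, 0.985 to 1.15 for IVD minus AI and -1.03 to -0.878 for IVF minus IVD. Of the other alternatives, 21 of 21, 16 of 19 and 17 of 19 did so in the same order of comparisons. Some of these settings could change the error or p-value of PTGS2 but not its difference. They were the other row filters, the fit of only the groups compared, the permutation test, and leaving out embryos of a group outside the comparison. The difference stayed at 0.12, 1.03 and -0.91 there by construction, so these settings are no test of its size. Quantile normalization ended the IVD calls (0.24, adjusted p = 0.0858, and -0.0353, adjusted p = 0.823), and so did the rank within the array (0.0053 percentile points for IVD minus AI, and 0.018 with the sign turned for IVF minus IVD, adjusted p = 0.894 for both). With the embryo number as a replicate block, IVD minus AI was 0.95 (adjusted p = 0.0916, 5 pairs), IVF minus IVD -0.81 (adjusted p = 0.00488, 9 pairs) and IVF minus AI 0.28 (adjusted p = 0.287, 7 pairs). Same-numbered embryos' deviations correlated at -0.187 to 0.213 with 3 of 21 pairs over 0.1. Such correlations cannot settle whether a number marks a shared replicate, and no label says so. The block fit also uses fewer embryos.

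Without centring, the dye difference of PTGS2 (Cy5 minus Cy3, divided by 2) was 0.87 for IVD minus AI (adjusted p = 2.09e-06) and turned to -0.81 for IVF minus IVD (adjusted p = 2.09e-06), and with quantile normalization the second was -0.12. The difference in spread, IVD minus AI, turned to -0.0276 without centring, -0.00131 without IVD embryo 6 and AI embryo 14, and -0.0445 in Cy3 alone, none past the threshold. Of the other measured prostaglandin synthesis and receptor genes, 1, 2 and 3 passed in IVF minus AI, IVD minus AI and IVF minus IVD. Without centring 0, 1 and 1 passed, and not as part of the same calls: in IVD minus AI, PTGDS and RXRB (lower) were lost and ANXA1 (higher, 0.80, adjusted p = 0.0106) was gained, and in IVF minus IVD only ANXA1 (lower) passed. The counts were 0, 0 and 1 over rows measured in every embryo, where fewer genes are tested. They were 0 and 0 in IVF minus AI and IVD minus AI with the replicate block, and 1 in IVF minus IVD in Cy5 alone. Over all features, calls higher and lower in IVD minus AI were 1603 and 1318 as centred, and 2405 and 414 without centring, which moved the median feature to 0.317 against 0.0579. For IVF minus IVD they were 1403 and 1583 as centred, 465 and 2198 without centring. In IVF minus AI they were 1251 and 1114, against 644 and 681 without centring and 431 and 377 with the replicate block. A block for the clusters of dye bias, which compares 6 IVF embryos with AI, gave 676 and 624. The replicate block gave 788 and 702 for IVD minus AI. The cause of these changes was not tested.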
